A study of Mus musculus with 32 samples.

Results

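The genes described here are 34 mouse genes of amino acid breakdown and the urea cycle, measured in liver by RNA sequencing. They were taken by symbol from a table of 35275 genes, and each symbol matched 1 row. They comprise 8 genes of the urea cycle and its mitochondrial carriers, 2 that release ammonia from glutamate and glutamine, 5 of tyrosine, 4 of tryptophan, 4 of histidine and 3 of serine and glycine breakdown. Another 3 act on proline, hydroxyproline and ornithine, 1 on lysine, and 4 on the branched-chain amino acids.

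PolyA RNA was taken from whole livers. All mice were C57BL/6 males, 16 weeks old, and had eaten their diet since 12 weeks of age. KO mice (Fatp2-/-) lacked Fatp2, a fatty acid transport protein encoded by Slc27a2, and WT mice were the wild-type controls. KD is a ketogenic diet and CD the control diet made to accompany it, and mice were fasted for 24 h or 4 h before death. The 8 groups of 4 mice were KO KD 24 h, KO KD 4 h, KO CD 24 h, KO CD 4 h, WT KD 24 h, WT KD 4 h, WT CD 24 h and WT CD 4 h. Each library was taken as 1 animal. The construction of the Fatp2 allele, the cells that lose it and the makeup of the diets were not analysed here.

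The liver strips amino acids of their nitrogen when they are burned or turned into glucose. The ammonia enters the urea cycle, in which Cps1 and Otc work inside mitochondria and Ass1, Asl and Arg1 outside them. The remaining carbon enters central metabolism and can become glucose or ketone bodies. In liver, transcription of many of these genes is known to answer to glucagon, to glucocorticoids and to protein intake.

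The libraries held 13406678 to 24700310 counts each, and each member had at least 329 reads in every library. Levels are given as CPM, the counts scaled to a common library size with edgeR's TMM factors, in the order of replicates 1 to 4. Replicate numbers follow the order of deposit. Slc27a2 lay between 121 and 318 CPM in the 16 KO libraries, against 905 to 2229 CPM in the 16 WT libraries, and no library went against its genotype. The numbers in the titles do not overlap between genotypes or, within a genotype, between fasting times. No label says what they stand for, and if they mark a batch, it cannot be told apart from those 2 factors.

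Several libraries stood apart. Skeletal muscle markers summed to between 185.3 and 434 CPM in KO KD 4 h replicate 4, KO CD 24 h replicates 1 and 2 and WT CD 24 h replicate 1, and to at most 3.02 CPM in every other library. The summed Kupffer cell and macrophage markers reached 1036 CPM in WT CD 24 h replicate 1. In that library the mean log2 CPM of 9 male-biased liver genes was 5.59. Its group mates had 8.79 to 9.16, and the lowest value in any other library was 7.69 (KO CD 24 h replicate 3). As a sum these genes were not lowest there, at 7542 CPM, against 5385 CPM in KO CD 4 h replicate 4. Along 68 genes that KD changed the same way in WT at both fasting times, with the WT CD mean set to 0 and the WT KD mean to 1, a value of 0.979 was found for KO CD 24 h replicate 4, as labelled. The other KO CD 24 h libraries lay between 0.286 and 0.475. KO KD 24 h replicate 4, as labelled, had a value of 0.438, and its group mates had 0.960 to 1.01. The value 0.438 lies inside the range of the other KO CD 24 h libraries, and the value of KO CD 24 h replicate 4 inside that of the other KO KD 24 h libraries. Whether the 2 labels are exchanged was not tested, and every KO 24 h value is given as labelled. No member was among the 68 genes. The library labelled KO CD 24 h replicate 4 was the lowest of its group for 23 of the 34 members, against 21.6% of all genes tested. The library labelled KO KD 24 h replicate 4 was the highest for 21 members, against 33.1% of all genes. Other libraries also set the range: WT KD 4 h replicate 4 was the highest of its group for 30 members (27.9% of all genes), and WT KD 24 h replicate 1 the lowest for 27 (37.0% of all genes). Results that change without such a library are given both ways. For some members exons overlap a gene on the opposite strand, and without a stated strand setting their reads cannot be told apart: Plbd2 overlaps 21.3% of the exonic bases of Sds, Gm11586 15.6% of Nags, Pomt2 9.14% of Gstz1 and Spryd4 2.79% of Gls2.

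Per kb of gene length, the only scale used here to compare genes, the mean over 32 libraries was highest for Hpd, an enzyme of tyrosine breakdown, at 1767 CPM per kb. Ass1, Arg1 and Tdo2 followed at 1501, 1097 and 728 CPM per kb. The lowest were Amt at 28.8 and Nags at 21.6 CPM per kb. The ratio of the highest to the lowest of the 8 group means ran from 1.25 for Ivd to 5.69 for Gldc. It was over 4 for Aass (4.45), Asl (4.40) and Oat (4.17), and under 1.3 for Fah, Kmo and Ivd. WT KD 4 h held the lowest group mean of 17 of the 34 members, and WT CD 24 h the highest of 13. The plot of levels per length shows that the spread between groups differed more among the urea cycle genes than among the branched-chain genes.

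**Figure D1:**
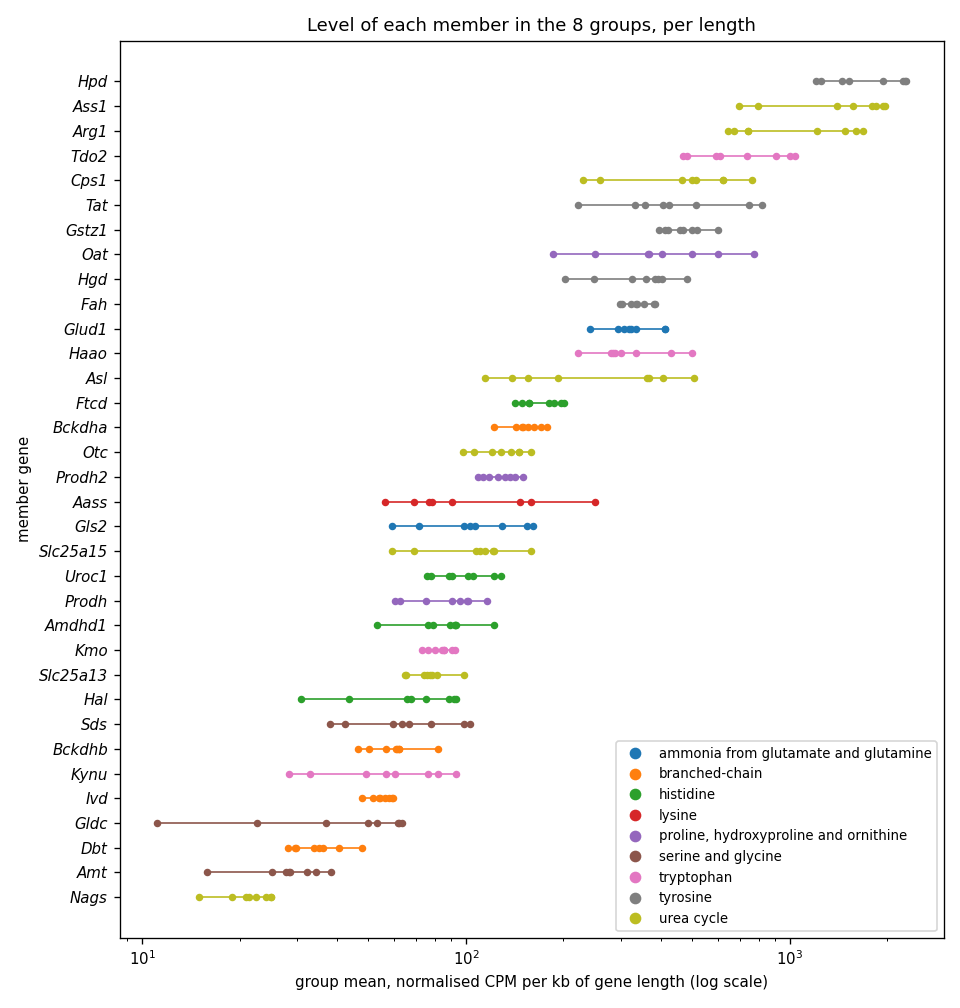
Each point is the mean of 1 group of 4 mice for 1 of the 34 members, in normalised CPM per kb of gene length on a log axis, coloured by route. Hpd stands highest at a mean of 1767 and Nags lowest at 21.6, and the widest span between groups is that of Gldc.

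Each comparison was tested over 14438 genes, of which all 34 members were part, and a member passed at a Benjamini-Hochberg adjusted p under 0.05 over all genes (edgeR quasi-likelihood test, two-sided). Fold changes are log2, first group over second, with the standard error (SE) in the same unit. The map of changes shows where calls fell. Diet at 4 h and fasting held nearly all of them, and genotype held 3.

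**Figure D2:**
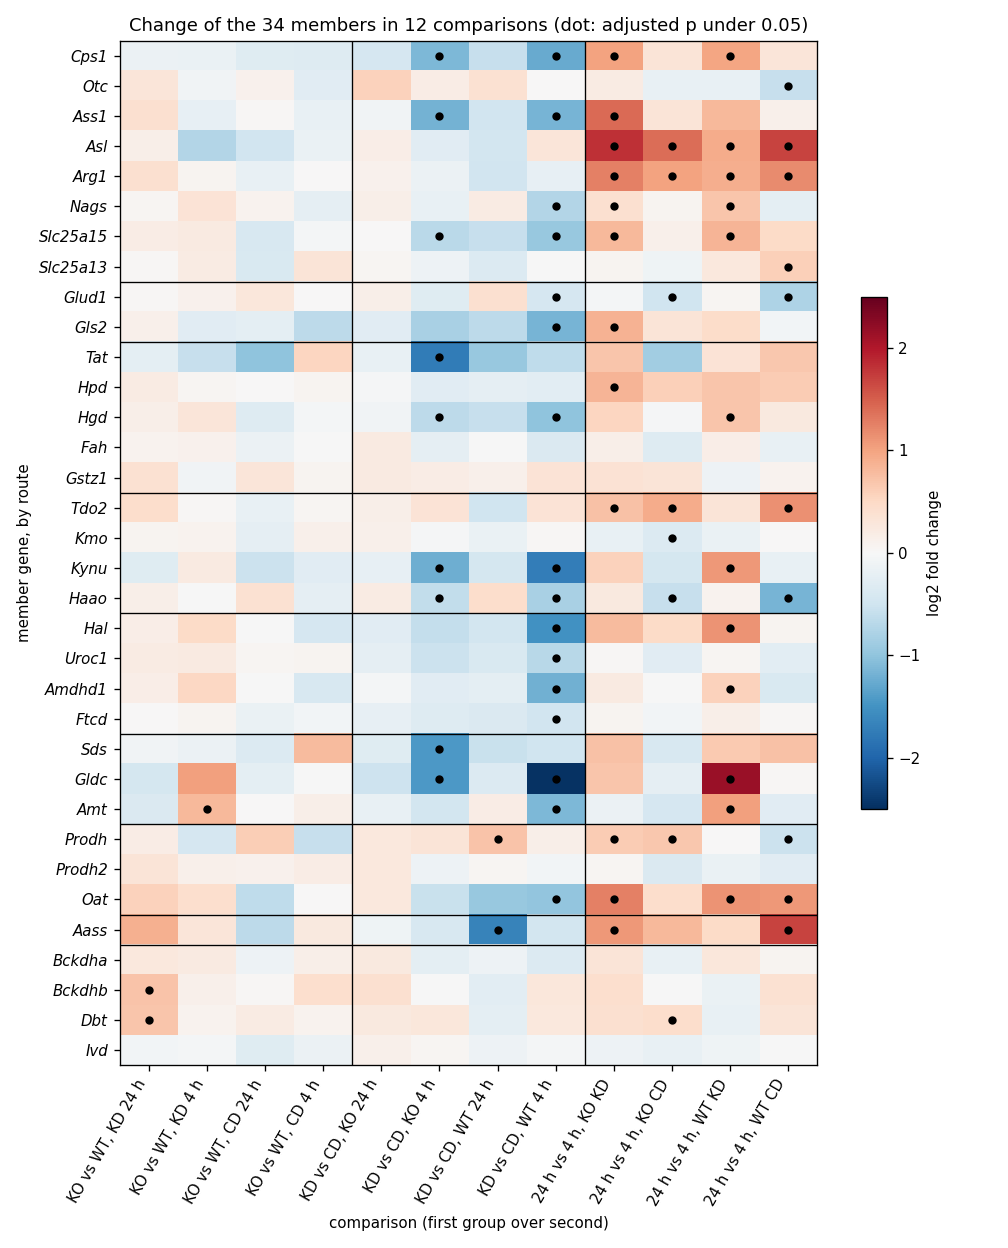
Log2 fold change of the 34 members (rows, separated by route) in 12 comparisons (columns: KO over WT, KD over CD, 24 h over 4 h). A dot marks an adjusted p under 0.05. The block of lower values lies under KD vs CD at 4 h, with 16 dots in WT and 9 in KO, and the fasting columns on KD hold 12 higher calls in each genotype.

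After a 4 h fast, the livers of WT mice on KD held less mRNA of all 4 histidine genes, of both genes that free ammonia from glutamate and glutamine, and of 4 of the 8 urea cycle genes than those of WT mice on CD. In all, 16 of the 34 members were lower on KD, where 16.5% of all genes tested were lower, and 0 were higher, where 10.8% of all genes were higher. The median change of the members was -0.47, against 0.03 over all genes. The other lower members were 2 of 3 for serine and glycine, 2 of 4 for tryptophan, 1 of 5 for tyrosine and 1 of 3 for proline and ornithine. None of the 4 branched-chain genes passed.

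The fall in WT was steepest for Gldc, which encodes the glycine decarboxylase of the mitochondrial glycine cleavage system. Gldc had 23.9, 26.6, 32.9 and 83.7 CPM in the 4 WT KD 4 h libraries, against 249, 265, 164 and 252 CPM in the 4 WT CD 4 h libraries. All 4 KD values lay below the lowest CD value (log2 fold change -2.48, SE 0.39, adjusted p = 4.05e-05). Amt, the aminomethyltransferase of the same complex, had a mean of 21.5 ± 2.49 CPM in WT KD 4 h and 46.6 ± 5.72 CPM in WT CD 4 h livers (SD, n = 4 each), with no overlap (log2 fold change -1.12, SE 0.20, adjusted p = 1.66e-04). Sds, the dehydratase that turns serine into pyruvate, had 47.8, 31.8, 25.3 and 99.4 CPM on KD and 86.0, 55.3, 76.9 and 68.8 CPM on CD. It did not pass (adjusted p = 0.376), and its highest value was in the KD library that was high for 30 members.

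Histidine is broken down by Hal (histidase, which releases its ammonia), Uroc1, Amdhd1 and Ftcd in that order, and each of these was lower on KD. Hal had 142, 167, 139 and 212 CPM in WT KD 4 h livers, against 485, 442, 445 and 509.9 CPM in WT CD 4 h livers. Every KD value was far below every CD value (log2 fold change -1.51, SE 0.28, adjusted p = 2.76e-04). Amdhd1, the imidazolonepropionase, had 123, 136, 116 and 141 CPM on KD, against 305, 301, 284 and 289 CPM on CD. Values within each diet lay close together for Amdhd1, and the groups were far apart (log2 fold change -1.19, SE 0.16, adjusted p = 2.69e-06). Uroc1 and Ftcd changed less, by -0.69 (SE 0.18) and -0.48 (SE 0.14). Hal and Amdhd1 are also neighbours on chromosome 10, pointing towards each other with 4033 bases between their ends.

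In the tryptophan route Kynu and Haao were lower. Kynu, the kynureninase, had 69.7, 66.3, 70.7 and 108 CPM in WT KD 4 h livers, against 253, 267, 260.2 and 257 CPM in WT CD 4 h livers. It had the smallest p of all members in this comparison (log2 fold change -1.72, SE 0.21, adjusted p = 1.28e-06). Haao, the dioxygenase that acts after it, changed by -0.81 (SE 0.15). Tdo2, which opens the tryptophan ring and commits it to this route, had a mean of 1761 ± 548 CPM with KD and 1389.5 ± 258 CPM with CD (SD, n = 4 each) and did not pass (adjusted p = 0.23). Whether Kynu and Tdo2 differ in their response was not tested.

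Among the urea cycle genes, Cps1, which makes the carbamoyl phosphate that starts the cycle, had 1024, 1109, 1261 and 2349 CPM in WT KD 4 h livers. In WT CD 4 h livers it had 3378, 3328, 3364 and 3738 CPM. The KD libraries were all lower, and the fourth of them was well above the other three (log2 fold change -1.27, SE 0.33, adjusted p = 0.00498). Nags, which makes the activator that Cps1 needs, fell by 0.73 (SE 0.12), and Ass1, which joins citrulline to aspartate, changed by -1.16 (SE 0.31). The ornithine carrier Slc25a15 changed by -0.95 (SE 0.20). Asl and Arg1, which complete the cycle outside mitochondria, changed by 0.30 (SE 0.27) and -0.20 (SE 0.23), and Otc by 0.0035 (SE 0.14), and none of these passed. The liver glutaminase Gls2 had a mean of 185 ± 57.9 CPM with KD and 415 ± 25.1 CPM with CD (SD, n = 4 each; log2 fold change -1.17, SE 0.26, adjusted p = 0.00137). Glud1, the glutamate dehydrogenase, was lower by less (log2 fold change -0.41), and its call was lost in 11 of 14 alternative settings. Hgd, a dioxygenase of tyrosine breakdown, changed by -1.0 (SE 0.20), and Oat, the ornithine aminotransferase, by -0.98 (SE 0.36). The call for Oat was lost in 8 of 14 settings, and without WT KD 4 h replicate 4, 18 members were lower, Tat and Bckdha among them.

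Other transcripts moved with these groups. The sum of 5 hepatocyte markers (Alb, Apoa1, Ttr, Serpina1c and Fgb) ran from 28520 to 49411 CPM in WT KD 4 h livers, against 63123 to 79203 CPM in WT CD 4 h livers, so all KD values were lower. In bulk tissue, fewer cells of a type and less RNA per cell cannot be told apart. In the same comparison 9 Kupffer cell and macrophage markers summed to between 474 and 644 CPM on KD, against 391.7 to 461 CPM on CD. The 5 stellate cell markers summed to between 229.7 and 281 CPM on KD, against 207 to 227 CPM on CD. Dcn weighs most in the stellate sum, with a median of 135 CPM over all libraries, and Reln follows at 35.4 CPM. As a mean of log2 CPM over the 5 stellate markers the groups overlapped, at 4.19 to 4.84 on KD and 4.61 to 4.71 on CD. Of 14 clock genes, 8 were higher and 4 lower on KD, beside 10.8% and 16.5% of all genes, and Arntl, a core activator of the clock, had a mean of 1.33 ± 0.701 CPM with KD and 18.7 ± 8.41 CPM with CD (log2 fold change -3.82). The glucocorticoid target Fkbp5 was higher on KD (log2 fold change 2.35, adjusted p = 0.00178). The transcription factor gene Cebpa, whose product drives many liver enzyme genes, was lower (log2 fold change -0.73, adjusted p = 0.00861). The part of these in the lower members was not tested, and these genes were chosen after their values were seen.

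RefSeq (GRCm38.p6) gives a window from 250 bases before to 50 after the start for 27 of the 34 members. The windows of members that moved together are shown, since their shared letters can be read side by side. The first 4 belong to members that were lower on KD at 4 h in WT, and Aass and Tdo2 were higher after the longer fast in WT on CD, as described further on. The window of Gldc lies at chr19:30175392-30175691 (reverse strand), Hal at chr10:93488518-93488817 (forward strand), Amdhd1 at chr10:93539984-93540283 (reverse strand), Ass1 at chr2:31470020-31470319 (forward strand), Aass at chr6:23132937-23133236 (reverse strand) and Tdo2 at chr3:81975679-81975978 (reverse strand). Each is written in the direction of the gene, and capitals mark every motif searched for that was found.
Gldc: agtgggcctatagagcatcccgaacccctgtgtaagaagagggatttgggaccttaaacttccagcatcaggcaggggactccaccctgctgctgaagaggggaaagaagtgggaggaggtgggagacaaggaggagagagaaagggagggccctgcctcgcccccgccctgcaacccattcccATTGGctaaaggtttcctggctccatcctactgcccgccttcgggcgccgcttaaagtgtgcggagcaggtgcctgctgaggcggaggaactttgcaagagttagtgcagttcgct
Hal: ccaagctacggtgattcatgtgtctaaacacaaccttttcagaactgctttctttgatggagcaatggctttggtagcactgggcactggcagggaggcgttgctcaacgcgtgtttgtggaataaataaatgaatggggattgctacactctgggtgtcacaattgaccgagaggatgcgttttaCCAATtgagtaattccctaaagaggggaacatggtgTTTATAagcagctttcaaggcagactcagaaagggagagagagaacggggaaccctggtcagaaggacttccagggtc
Amdhd1: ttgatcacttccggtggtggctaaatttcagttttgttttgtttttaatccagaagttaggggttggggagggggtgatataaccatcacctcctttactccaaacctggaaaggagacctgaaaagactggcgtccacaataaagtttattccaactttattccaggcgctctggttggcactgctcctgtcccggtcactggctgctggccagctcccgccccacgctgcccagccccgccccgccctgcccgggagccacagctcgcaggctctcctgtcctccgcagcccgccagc
Ass1: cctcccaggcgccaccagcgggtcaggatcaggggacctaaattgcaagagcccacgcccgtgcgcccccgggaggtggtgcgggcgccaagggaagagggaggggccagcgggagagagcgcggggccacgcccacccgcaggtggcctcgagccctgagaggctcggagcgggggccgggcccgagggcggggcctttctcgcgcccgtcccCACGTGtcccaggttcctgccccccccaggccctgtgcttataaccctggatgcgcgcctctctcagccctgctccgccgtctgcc
Aass: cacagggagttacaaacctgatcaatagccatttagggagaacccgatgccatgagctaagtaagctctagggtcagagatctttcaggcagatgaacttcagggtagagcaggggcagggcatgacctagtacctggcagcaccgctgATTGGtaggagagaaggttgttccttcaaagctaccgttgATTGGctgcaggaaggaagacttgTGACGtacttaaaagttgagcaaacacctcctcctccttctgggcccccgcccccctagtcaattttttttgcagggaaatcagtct
Tdo2: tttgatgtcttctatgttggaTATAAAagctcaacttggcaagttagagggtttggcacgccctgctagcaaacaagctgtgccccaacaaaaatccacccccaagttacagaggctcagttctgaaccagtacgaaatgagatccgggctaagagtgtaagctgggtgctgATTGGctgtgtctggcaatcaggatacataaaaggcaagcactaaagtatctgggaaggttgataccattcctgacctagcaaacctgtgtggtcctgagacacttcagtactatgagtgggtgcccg

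In the deposited annotation (GRCm38, mm10), Gldc spans chr19:30098449-30175418, Hal spans chr10:93488768-93519304, Amdhd1 spans chr10:93523338-93540033, Ass1 spans chr2:31470207-31520672, Aass spans chr6:23072173-23132986 and Tdo2 spans chr3:81957090-81975750. The motifs were sought on both strands, and none overlaps another in these 6 windows. The cAMP response element TGACGTCA was in 0 of the members' 30 windows (27 genes), against 1.79% of all 32851 windows. Its shorter form TGACG, which every full element contains, was in 6 members' windows, Aass among the 6 shown, against 20.8% of all. The glucocorticoid receptor motif TGTTCT was in 3 (19% of all), the FoxO site TGTTTAC in 0 (3.65% of all), and the E-box CACGTG in 3, among them Ass1 (7.15% of all). The CCAAT box, read as CCAAT or ATTGG, was in 16 of 30 windows, belonging to 14 members, against 37.4% of all windows. The sequence TATAAA was in 4 windows, those of Hal and Tdo2 included, against 13.6%. The Amdhd1 window held none of them. A match is a description of these letters only.

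**Figure D3:**
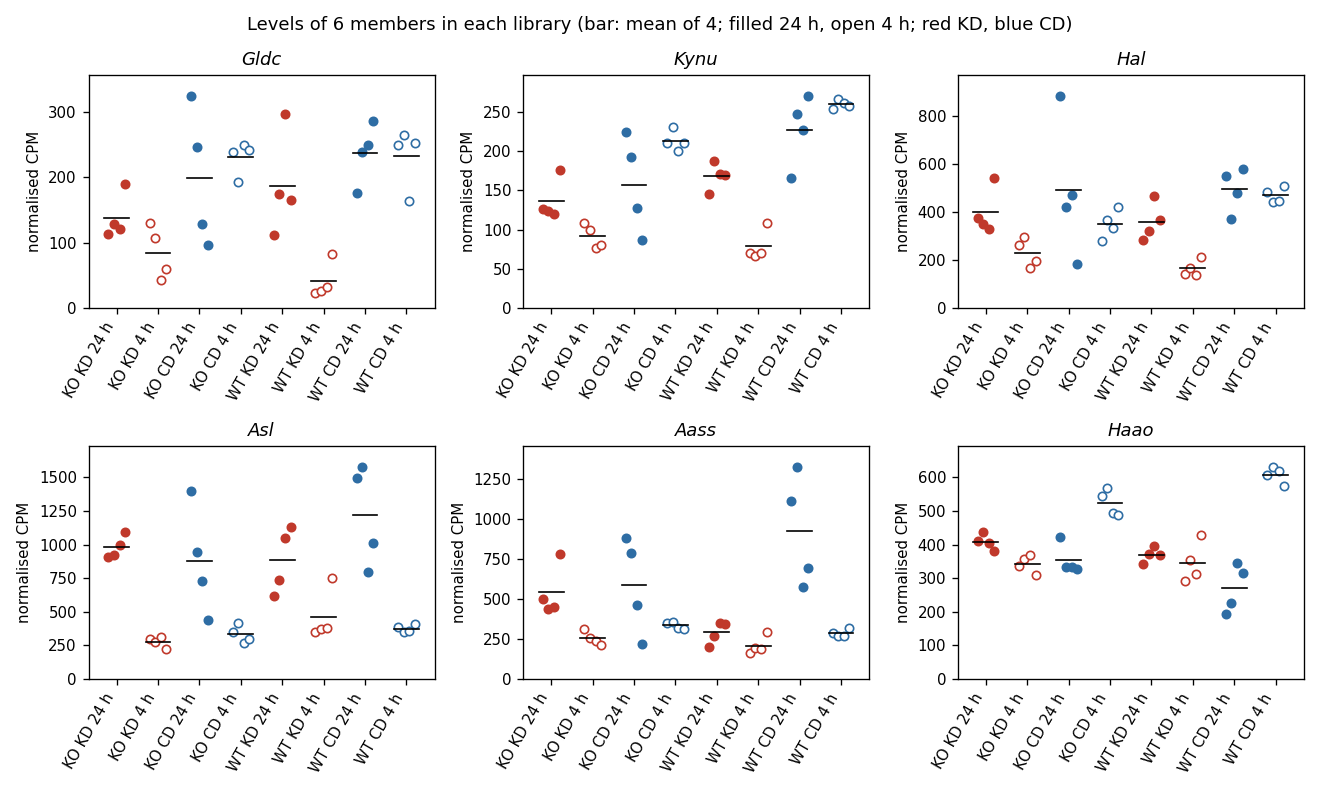
Normalised CPM of Gldc, Kynu, Hal, Asl, Aass and Haao in each of the 32 libraries, by group. Each point is 1 mouse, the bar is the mean of 4, filled points are 24 h and open points 4 h, red is KD and blue CD. For Gldc the open red points of WT KD 4 h, between 23.9 and 83.7 CPM, have the lowest group mean and overlap those of KO KD 4 h. The blue filled points of KO CD 24 h and WT CD 24 h spread widely.

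In KO livers after a 4 h fast, 9 of the 34 members were lower on KD than on CD, where 4.66% of all genes tested were lower, and 0 were higher (2.56% of all genes). The median change was -0.29. Gldc, Kynu, Haao, Cps1, Ass1, Slc25a15 and Hgd were also among the 16 that were lower in WT. These 7 are 43.8% of the WT calls and 77.8% of the KO calls, and the diet comparisons in KO and in WT share no library. The matching share over all genes was not computed, so whether this overlap is particular to the members was not tested. Tat and Sds passed in KO only, and their difference between genotypes did not pass (adjusted p = 0.749 for Tat and 0.766 for Sds).

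Tat, the aminotransferase that starts tyrosine breakdown, had 564, 717, 539 and 294 CPM in KO KD 4 h livers. In KO CD 4 h livers it had 2001, 2429, 544 and 2122 CPM. One CD library was as low as the KD libraries, so the groups overlapped (log2 fold change -1.75, SE 0.48, adjusted p = 0.0244). Sds had 40.1, 54.9, 40.3 and 48.5 CPM on KD, against 146, 154, 64.5 and 131 CPM on CD, without overlap (log2 fold change -1.43, SE 0.41, adjusted p = 0.0307). The same CD library was the lowest for Sds.

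Gldc had 131, 107, 42.4 and 59.6 CPM in KO KD 4 h livers, against 239, 194, 249.8 and 243 CPM in KO CD 4 h livers (log2 fold change -1.44, SE 0.38, adjusted p = 0.0192). Kynu had 109, 99.2, 77.2 and 81.0 CPM on KD, against 210.2, 230.3, 199.99 and 209.6 CPM on CD (log2 fold change -1.21, SE 0.21, adjusted p = 7.76e-04). Ass1 had 1133, 1363, 1319 and 906 CPM on KD, against 2520.4, 3249.9, 2236 and 2641 CPM on CD (log2 fold change -1.17, SE 0.31, adjusted p = 0.0192). For each of these 3 genes the highest KD library was below the lowest CD library. Of the 4 histidine genes none passed in KO: Hal changed by -0.60 (SE 0.28) and Amdhd1 by -0.28 (SE 0.15). The difference of the diet change between KO and WT was 0.91 for Amdhd1 (adjusted p = 0.0878), the smallest p of any member in that test. In edgeR 0 members passed it, where 0.104% of all genes did, and in DESeq2 1 member passed. An unadjusted p under 0.05 was found for 4 members and for 1120 of the 14438 genes tested.

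The count in KO rested on single libraries. Leaving out only KO KD 4 h replicate 4, the library with muscle transcripts, left 1 call (Kynu). Without all libraries that hold muscle transcripts, this one included, 9 members were lower. Of these, 8 were also called with all libraries. Leaving out replicate 3 of KO KD 4 h, or replicate 2 of KO CD 4 h, left 3, and leaving out replicate 1 or 4 of KO CD 4 h left 4. Hepatocyte marker sums ran from 29761 to 51743 CPM in KO KD 4 h livers, against 64472 to 71726 CPM in KO CD 4 h livers. Of the 14 clock genes, 6 were higher and 3 lower on KD, beside 2.56% and 4.66% of all genes. Their part in the members' change was not tested.

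After a 24 h fast the diets differed in few members. In WT, 1 member was lower on KD (1.46% of all genes) and 1 higher (1.32% of all genes). Aass, which starts lysine breakdown in mitochondria, had 201, 271, 348 and 346 CPM in WT KD 24 h livers. In WT CD 24 h livers it had 1113, 1325, 573 and 692 CPM. Every KD value lay below every CD value (log2 fold change -1.67, SE 0.30, adjusted p = 0.00309). Prodh, the proline dehydrogenase, was higher on KD, with overlapping groups (log2 fold change 0.70, SE 0.19, adjusted p = 0.0387), and its call was lost in 9 of 14 settings. Without WT CD 24 h replicate 3, 4 members passed, and without WT CD 24 h replicate 1 or 2 or WT KD 24 h replicate 2, 3 or 4, 1 did. Without all libraries that hold muscle transcripts, 0 members were higher and 3 lower on KD.

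In KO at 24 h, 0 members were higher (0.00693% of all genes) and 0 lower (0% of all genes) on KD in edgeR. The smallest p belonged to Otc, the enzyme that makes citrulline, with 529, 552, 413 and 409 CPM in KO KD 24 h livers, against 305, 301, 348 and 319.9 CPM in KO CD 24 h livers. All KD values were above all CD values (log2 fold change 0.58, SE 0.14, adjusted p = 0.107). Bckdhb, a subunit of the branched-chain ketoacid dehydrogenase, followed with overlapping groups, at 160.5, 135, 99.1 and 91.3 CPM on KD and 86.4, 82.6, 96.7 and 100.4 CPM on CD (log2 fold change 0.41, SE 0.14, adjusted p = 0.241). At an unadjusted p under 0.05 there were 2 members, beside 1766 of the 14438 genes tested, and DESeq2 called 1 member, Otc. This comparison holds both libraries that lay near the other diet, and without them 0 members passed. If the 2 labels are exchanged, these values belong to other groups.

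Transcripts for the end of the urea cycle were higher after the 24 h fast on either diet and in either genotype. Asl and Arg1 were higher at 24 h than at 4 h in all 4 fasting comparisons, the only members called in all 4. On CD, 6 members were higher in WT (8.89% of all genes) and 4 lower (9.61%). In KO on CD, 5 were higher (8.97% of all genes) and 3 lower (9.75%). The members' median was 0.07 in WT and -0.01 in KO, close to all genes (0.02 and -0.01). On KD, 12 were higher in WT (6.26% of all genes) and 12 in KO (4.56% of all genes), and 0 were lower in either, where 4.65% of all genes were lower in WT and 4.82% in KO. On KD the median change was 0.40 in WT and 0.48 in KO.

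Markers of liver cell types moved with fasting too. The 5 hepatocyte markers summed to between 47888 and 56005 CPM in KO KD 24 h livers, against 29761 to 51743 CPM in KO KD 4 h livers. In WT on KD the sums were 45674 to 67728 CPM at 24 h, against 28520 to 49411 CPM at 4 h. The medians of these sums were higher at 24 h in both, and the ranges overlapped. As a mean of log2 CPM over the hepatocyte markers, the groups in KO on KD did not overlap, at 11.88 to 12.21 at 24 h and 11.35 to 11.71 at 4 h. In WT on KD they overlapped, at 11.83 to 12.20 at 24 h and 11.44 to 11.91 at 4 h. The 9 Kupffer cell and macrophage markers summed to between 186 and 311.5 CPM in KO KD 24 h livers, against 312.1 to 456 CPM in KO KD 4 h livers. In KO on CD the same sums were 154 to 317 CPM at 24 h and 344 to 433 CPM at 4 h. As a mean of log2 CPM over these markers both comparisons overlapped. On KD the values were 3.80 to 4.68 at 24 h and 4.43 to 5.34 at 4 h. On CD they were 3.74 to 4.58 at 24 h and 4.42 to 5.11 at 4 h. The 5 stellate cell markers summed to between 159 and 193 CPM in WT KD 24 h livers, against 229.7 to 281 CPM in WT KD 4 h livers. By mean log2 CPM these groups did not overlap either, at 3.74 to 3.96 and 4.19 to 4.84. The part of these markers in the members' changes was not tested.

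Asl splits argininosuccinate into arginine and fumarate. On CD it had 1494, 1579, 795 and 1009 CPM in WT livers at 24 h, against 387, 347, 359 and 409.6 CPM at 4 h (log2 fold change 1.70, SE 0.28, adjusted p = 6.69e-05). In KO on CD it had 1399.6, 944, 726 and 437 CPM at 24 h, against 349, 420.2, 269 and 302 CPM at 4 h (log2 fold change 1.39, SE 0.28, adjusted p = 0.00117). The lowest of these KO 24 h values was in the library near the other diet and lay just above the highest 4 h value. On KD, Asl had 911, 920.2, 999 and 1092 CPM in KO livers at 24 h, against 295, 273, 312 and 227 CPM at 4 h (log2 fold change 1.82, SE 0.28, adjusted p = 2.16e-04). In WT on KD the groups overlapped through WT KD 4 h replicate 4: Asl had 621, 733, 1052 and 1132 CPM at 24 h and 348, 371, 379 and 753 CPM at 4 h (log2 fold change 0.93, SE 0.28, adjusted p = 0.0254). That call was lost in 6 of 14 settings.

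Arg1, the arginase that releases urea, had 3293, 3459, 1364 and 1833 CPM in WT CD 24 h livers, against 1100.0, 1029, 1064 and 1177 CPM in WT CD 4 h livers (log2 fold change 1.19, SE 0.23, adjusted p = 4.15e-04). In KO on KD it had 2157, 2409, 2163 and 2721 CPM at 24 h, against 984, 915, 1060.5 and 1006 CPM at 4 h (log2 fold change 1.25, SE 0.23, adjusted p = 0.00127). All 24 h values lay above all 4 h values in both. The change was 0.91 (SE 0.23) in WT on KD and 1.00 (SE 0.23) in KO on CD.

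Cps1, Nags and Slc25a15 were called on KD in both genotypes. Cps1 changed by 1.01 (SE 0.32) in KO and 0.99 (SE 0.32) in WT on KD, against 0.32 (SE 0.32) in KO and 0.30 (SE 0.32) in WT on CD. The call for Cps1 on KD was lost in 10 of 14 settings in KO and 8 of 14 in WT. Nags and Slc25a15 were higher at 24 h by 0.40 and 0.82 in KO and by 0.69 and 0.86 in WT. In KO the call for Nags was lost in 10 of 14 settings, and in WT in 0. The call for Slc25a15 in KO was lost without KO KD 24 h replicate 4. The fasting change differed between diets in WT for Nags, and did not pass for Cps1 (adjusted p = 0.329) or Slc25a15 (adjusted p = 0.37). Ass1 had 2672, 2723, 2644 and 4501 CPM in KO KD 24 h livers, against 1133, 1363, 1319 and 906 CPM in KO KD 4 h livers (log2 fold change 1.41, SE 0.31, adjusted p = 0.00514). It did not pass in WT on KD (adjusted p = 0.0896). Otc passed on KD in neither genotype and was lower at 24 h in WT on CD (log2 fold change -0.57, SE 0.14, adjusted p = 0.00459), and the aspartate carrier Slc25a13 was higher there (0.59). The call for Slc25a13 was lost in 6 of 14 settings.

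The entry steps for lysine and tryptophan were among the genes higher after the longer fast. Aass had 1113, 1325, 573 and 692 CPM in WT CD 24 h livers, against 286, 266, 269.6 and 319 CPM in WT CD 4 h livers (log2 fold change 1.70, SE 0.30, adjusted p = 1.75e-04). In KO on KD it had 499.7, 437, 452 and 779.8 CPM at 24 h, against 315, 258, 239 and 210.1 CPM at 4 h (log2 fold change 1.08, SE 0.30, adjusted p = 0.0216). The groups did not overlap in either. Aass changed by 0.81 (SE 0.30) in KO on CD and 0.49 (SE 0.30) in WT on KD and passed in neither, and its call in KO on KD was lost without KO KD 24 h replicate 4 or KO KD 4 h replicate 2 or 4. Tdo2 had 3848, 4005, 2272 and 2193 CPM in WT CD 24 h livers, against 1169.8, 1178, 1686 and 1525 CPM in WT CD 4 h livers (log2 fold change 1.15, SE 0.21, adjusted p = 2.98e-04). It was also higher in KO on CD (0.92) and in KO on KD (0.72), where the call was lost in 7 of 14 settings. Later in the same route Haao went the other way on CD, with 192, 227, 345 and 317 CPM in WT livers at 24 h, against 606, 631, 619 and 575 CPM at 4 h (log2 fold change -1.17, SE 0.15, adjusted p = 1.65e-06). Haao was lower in KO on CD too, by 0.57 on the log2 scale.

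Oat, which moves nitrogen from ornithine, had 521, 739.7, 1067 and 1139 CPM in WT KD 24 h livers, against 443, 394, 283 and 479 CPM in WT KD 4 h livers (log2 fold change 1.12, SE 0.37, adjusted p = 0.0454). In KO on KD it had 934, 797, 1181 and 2241 CPM at 24 h, against 593, 595, 629 and 332 CPM at 4 h (log2 fold change 1.26, SE 0.37, adjusted p = 0.0287). The 24 h values lay above the 4 h values in both, and KO KD 24 h replicate 4 was far above its group mates. The calls for Oat on KD were lost in 8 of 14 settings in WT and 5 of 14 in KO. Oat was also higher at 24 h in WT on CD (log2 fold change 1.08), where the call was lost in 7 of 14 settings. The difference of its fasting change between diets in WT was 0.034 and did not pass (adjusted p = 0.973). Glud1 was lower at 24 h on CD, by 0.77 in WT and by 0.49 in KO on the log2 scale. The call was lost in 8 of 14 settings in KO and 0 of 14 in WT. Hpd and Gls2 were higher at 24 h in KO on KD, by 0.84 (SE 0.23) and 0.86 (SE 0.26), and were not called in the other fasting comparisons. The call was lost in 4 of 14 settings for Hpd and 5 of 14 for Gls2. Both were lost without KO KD 24 h replicate 4, and without the libraries near the other diet. The fasting change on KD differed between KO and WT in 0 members in edgeR (0.256% of all genes) and in 1 in DESeq2. An unadjusted p under 0.05 was found for 7 members and for 2030 of the 14438 genes tested. The fasting change on KD differed in 1 member without KO KD 4 h replicate 3 or WT KD 24 h replicate 1.

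In WT on KD, Gldc, Amt, Hal, Amdhd1 and Kynu, all low at 4 h, were higher at 24 h. Gldc had 112, 174, 297 and 166 CPM at 24 h, against 23.9, 26.6, 32.9 and 83.7 CPM at 4 h (log2 fold change 2.17, SE 0.39, adjusted p = 4.64e-04). Hal had 282, 319.8, 465 and 369 CPM at 24 h, against 142, 167, 139 and 212 CPM at 4 h (log2 fold change 1.12, SE 0.28, adjusted p = 0.00933). Kynu had 145, 187, 170.3 and 169 CPM at 24 h, against 69.7, 66.3, 70.7 and 108 CPM at 4 h (log2 fold change 1.09, SE 0.21, adjusted p = 8.41e-04). Amt had 33.9, 43.0, 57.2 and 40.5 CPM at 24 h, against 21.6, 22.2, 18.0 and 24.0 CPM at 4 h (log2 fold change 1.03, SE 0.20, adjusted p = 0.00109). None of these 4 genes had overlapping groups. The fasting and diet comparisons in WT share the WT KD 4 h libraries, so these values and the lower ones at 4 h are not separate evidence.

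The count of fasting calls on KD depended on single libraries. In WT it was 7 without WT KD 4 h replicate 3. In KO it was 5 when replicate 4 of either KD time was left out and 6 when replicate 2 of KO KD 4 h was. Replicate 1 of that group and replicate 2 of KO KD 24 h each brought it to 7. Asl, Arg1 and Ass1 were among the calls without KO KD 24 h replicate 4. Without both libraries near the other diet it was 7. Without all libraries that hold muscle transcripts it was 10, and 9 of these were also called with all libraries. In KO on CD it was 5 without KO CD 24 h replicate 3 or KO CD 4 h replicate 1. Without the libraries that hold muscle transcripts it was 13, of which 9 were lower, with Tat (-0.88 with all libraries) at -1.81 and Kynu at -1.0. In that fit 4259 of all genes passed in either direction, against 2703 with all libraries. That fit keeps KO CD 24 h replicates 3 and 4, and replicate 4 is the one near the other diet.

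Fasting changed 7 members differently on KD than on CD in WT livers, where 12.9% of all genes differed. All 7 differences were positive, and DESeq2 called 11, of which 4 were negative (Tdo2, Aass, Bckdhb and Dbt). The difference of the log2 changes, KD minus CD, was 2.14 for Gldc (SE 0.53, adjusted p = 0.00778). It was 1.30 for Amt, 1.28 for Kynu, 1.26 for Haao, 0.95 for Amdhd1, 0.94 for Nags and 0.81 for Glud1. These fall into separate patterns. Gldc, Amt, Kynu, Amdhd1 and Nags were higher at 24 h on KD and did not pass on CD, where Gldc changed by 0.03 (SE 0.37). Haao and Glud1 were lower at 24 h on CD and changed little on KD, by 0.091 (SE 0.15) and 0.044 (SE 0.15). In KO the same test passed for 1 member, Haao (difference 0.82, SE 0.21, adjusted p = 0.0409), where 1.39% of all genes passed. That call was lost in 15 of 22 settings. Among them were the leaving out of any KO CD 4 h or KO KD 24 h library, of KO CD 24 h replicate 2, 3 or 4 or of KO KD 4 h replicate 2 or 4, and 2 members passed without KO CD 24 h replicate 1.

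**Figure D4:**
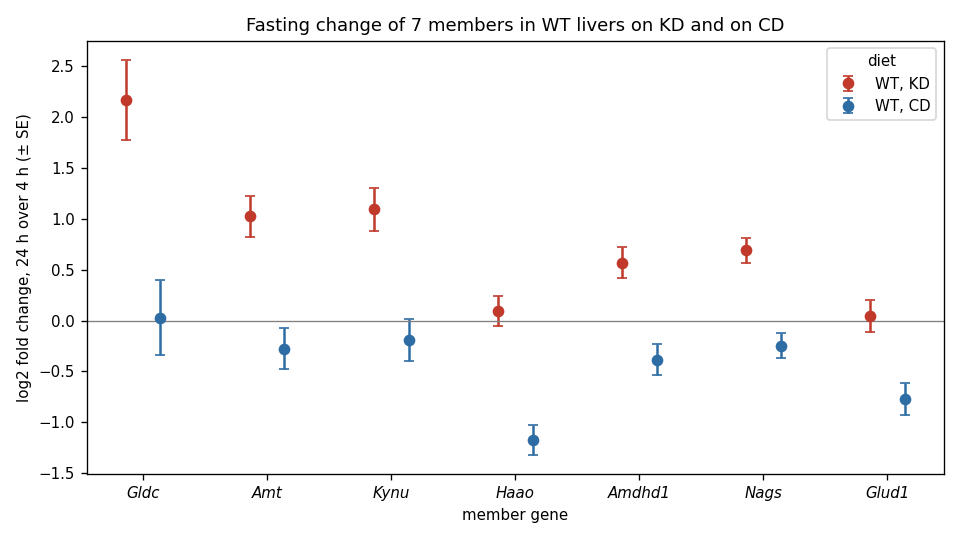
Log2 fold change of 24 h over 4 h in WT livers, with SE bars, on KD (red) and on CD (blue), for the 7 members whose fasting change differed between diets. For Gldc the KD point stands at 2.17 and the CD point near 0, while for Haao the KD point is near 0 and the CD point at -1.17.

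KO livers differed from WT livers in few members. On CD at 4 h, 0 were higher (1.38% of all genes) and 0 lower (0.45%), and DESeq2 called 0. An unadjusted p under 0.05 was found for 4 members and for 1337 of the 14438 genes tested. The smallest p belonged to Prodh, with 146, 156, 150.1 and 123 CPM in KO CD 4 h livers, against 217, 163, 257 and 224 CPM in WT CD 4 h livers, without overlap (log2 fold change -0.58, SE 0.19, adjusted p = 0.15). Bckdhb, a subunit of the branched-chain ketoacid dehydrogenase, had 75.7, 79.6, 115 and 96.6 CPM in KO and 74.6, 66.2, 65.9 and 67.0 CPM in WT (log2 fold change 0.42, SE 0.14, adjusted p = 0.172). All KO values for Bckdhb were above all WT values.

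On CD at 24 h, 0 members were higher (0.942% of all genes) and 0 lower (1.13%) in KO than in WT. An unadjusted p under 0.05 was found for 6 members and for 2249 of the 14438 genes tested. DESeq2 called 1 member, Prodh. Prodh had 316, 186, 194 and 221 CPM in KO CD 24 h livers, against 132, 139, 139.8 and 185 CPM in WT CD 24 h livers (log2 fold change 0.62, SE 0.19, adjusted p = 0.0784). Haao had 421, 332, 333 and 328 CPM in KO and 192, 227, 345 and 317 CPM in WT (log2 fold change 0.39, SE 0.15, adjusted p = 0.17), and the groups overlapped. KO values of Prodh all lay above WT here and all below WT at 4 h. Its fasting change differed between genotypes on CD (difference 1.20, SE 0.27, adjusted p = 0.0253), the only member called in that test (0.61% of all genes). The call was lost in 7 of 22 settings, among them the leaving out of KO CD 24 h replicate 1, which holds muscle transcripts, of replicates 1 or 4 of KO CD 4 h, of replicate 2 of WT CD 24 h, and of replicates 3 or 4 of WT CD 4 h. Leaving out replicate 2 of KO CD 24 h or replicate 3 of WT CD 24 h, 1 member was higher in KO on CD at 24 h. Without all libraries that hold muscle transcripts, 11 members were lower in KO on CD at 24 h, Oat at -1.69, Tat at -1.86 and Aass at -1.34 among them. In that fit 2247 of all genes passed in either direction, against 299 with all libraries. That fit rests on 2 KO libraries, 1 of which is near the other diet.

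On KD at 4 h, 1 member was higher in KO than in WT (1.84% of all genes) and 0 were lower (0.977%). It was Amt, with 45.1, 41.9, 31.1 and 32.6 CPM in KO KD 4 h livers, against 21.6, 22.2, 18.0 and 24.0 CPM in WT KD 4 h livers, without overlap (log2 fold change 0.81, SE 0.20, adjusted p = 0.0199). Amdhd1 had 190.0, 220.5, 157 and 172 CPM in KO and 123, 136, 116 and 141 CPM in WT and missed the threshold (log2 fold change 0.52, SE 0.15, adjusted p = 0.0623). Amt did not pass without KO KD 4 h replicate 1 or 2, or without WT KD 4 h replicate 1 or 3. Without KO KD 4 h replicate 3 or WT KD 4 h replicate 4, 2 members passed. Kupffer cell and macrophage markers summed to between 312 and 456 CPM in KO KD 4 h livers, against 474 to 644 CPM in WT KD 4 h livers. As a mean of log2 CPM over the markers the groups overlapped, at 4.43 to 5.34 in KO and 5.08 to 5.68 in WT. The part of these markers was not tested.

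On KD at 24 h, 2 members were higher in KO than in WT (2% of all genes) and 0 were lower (1.95%). Both encode parts of the branched-chain ketoacid dehydrogenase, which commits leucine, isoleucine and valine to breakdown. Dbt, its core transacylase, had 155, 154, 155 and 168 CPM in KO KD 24 h livers, against 83.1, 84.9, 121 and 103 CPM in WT KD 24 h livers (log2 fold change 0.69, SE 0.14, adjusted p = 0.00335). Bckdhb had 160.5, 135, 99.1 and 91.3 CPM in KO, against 63.1, 73.2, 77.8 and 82.7 CPM in WT (log2 fold change 0.71, SE 0.14, adjusted p = 0.00338). Neither gene had overlapping groups. Kupffer cell and macrophage markers summed to between 186 and 312 CPM in KO KD 24 h livers, against 388 to 631 CPM in WT KD 24 h livers. Stellate cell markers summed to between 219 and 266 CPM in KO, against 159 to 193 CPM in WT. Neither sum overlapped between genotypes, and their part in the result was not tested. The partner subunit Bckdha did not pass (0.26 (SE 0.15)), and 61.7% of its exonic bases overlap B3gnt8 on the opposite strand, so its reads may be shared. Further down the same routes, 3 of 15 other branched-chain genes tested were higher in KO, all of valine breakdown: Hibadh (0.61, adjusted p = 0.0018), Aldh6a1 (0.50) and Hibch (0.49). The difference of the genotype change between diets at 24 h passed for 0 members (0% of all genes) in edgeR and 1 in DESeq2. An unadjusted p under 0.05 was found for 6 members and for 1221 of the 14438 genes tested.

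Beyond the members, 52 other genes of amino acid breakdown, transamination and transport were listed and 50 tested. On KD against CD at 4 h in WT, 8 of the 50 were higher and 16 lower, beside 10.8% and 16.5% of all genes. The lower ones included Qprt, which turns the tryptophan product quinolinate towards NAD (-1.25), the glyoxylate transaminase Agxt (-1.19), Acmsd, which diverts tryptophan carbon away from NAD (-1.17), and the glutamine transporter Slc38a3 (-1.05). In KO, 2 were higher and 6 lower, beside 2.56% and 4.66% of all genes. Got1, the cytosolic aspartate aminotransferase, had a mean of 60.4 ± 10.8 CPM with KD and 269.8 ± 43.3 CPM with CD (SD, n = 4 each; log2 fold change -2.16, SE 0.45, adjusted p = 0.00367). At 24 h the glutamate carrier Slc25a22 was the only one called in WT (-1.01; 1.46% of all genes were lower), and edgeR called 0 in KO, where 1 of 14438 genes passed.

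With fasting on CD, 6 of the 50 were higher and 9 lower in WT, beside 8.89% and 9.61% of all genes. In KO on CD, 4 were higher and 7 lower, beside 8.97% and 9.75%. On KD, 4 were higher and 1 lower in WT, beside 6.26% and 4.65%, and 5 were higher and 1 lower in KO, beside 4.56% and 4.82%. Several of these counts lie near the share over all genes. Sdsl, a relative of Sds, was higher at 24 h in all 4, by 1.72 in KO on KD, 1.06 in KO on CD, 1.83 in WT on KD and 1.54 in WT on CD. Gpt2, the mitochondrial alanine aminotransferase, averaged 935 ± 223 CPM at 24 h and 358 ± 19.2 CPM at 4 h in WT on CD (SD, n = 4 each; log2 fold change 1.39, SE 0.19, adjusted p = 5.71e-06). Got1 was higher at 24 h in KO on KD (2.22) and in WT on CD (1.36), where Ido2, a dioxygenase of tryptophan, was lower (-1.35). KO differed from WT in 6 of the 50, all higher, on KD at 24 h, where 2% of all genes were higher.

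Of 9 genes that regulate amino acid breakdown, Ppargc1a, a coactivator of fasting genes, was higher at 24 h than at 4 h in WT on CD (1.01, adjusted p = 0.0423). It was lower on KD than on CD in KO at 4 h (-1.30) and in WT at 24 h (-1.27). Igfbp1, a target of fasting signals, differed in those last comparisons too (-2.82 in KO at 4 h and -2.97 in WT at 24 h), and the gluconeogenic gene Pck1 was lower on KD in KO at 4 h (-1.55). These regulators were chosen after their values were seen, and no relation to the members was tested.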

How the data were processed

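PolyA RNA from 32 whole livers was sequenced from TruSeq libraries, per the labels' protocols. Per the submitters' processing notes, TopHat2 2.0.12, Bowtie2 2.2.3 and HTSeq 0.6.1 were used with GRCm38 (mm10). Neither strand setting nor annotation release is given there. The authors deposited 1 table of raw read counts per gene, with FPKM and gene length beside them. The deposited FPKM equalled count over length and total for 100% of values within 0.1% and was not used further.

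The table holds 35275 genes, of which 10278 had no read, and 27 symbols that had turned into dates were restored by gene ID. Total counts were 13406678 to 24700310 per library, with 17334 to 19793 genes detected. A count of 3, the floor, is 0.112 to 0.230 CPM, and depth covers counting error only. Replicates differed by more than sampling noise in all 48 pairs (chi-square per degree of freedom 7.50 to 236). Each library was taken as a separate animal, and the p-values measure the spread between these libraries.

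Counts were tested with edgeR 4.0.16 (R 4.3.3, limma 3.58.1): TMM scaling, filterByExpr (14438 genes left), and a quasi-likelihood fit over all 8 groups (biological coefficient of variation 0.235, 24 residual degrees of freedom, median prior 4.95). The 12 comparisons and 6 interactions were adjusted by Benjamini-Hochberg over all genes, and SE is the fold change over the square root of F. The fit was tested on simulated data. Alternatives were DESeq2 1.42.0, its size factors in edgeR, no filter, only the groups compared, leaving out each replicate, and leaving out the libraries with muscle transcripts or near the other diet. The members and lists were chosen with earlier results of these data known. Every library's value is given for up to 5 members per comparison that passed with an absolute log2 fold change of at least 1, by size, or for the 2 with the smallest p where there was none. Up to 4 other amino acid genes were named, and genes beyond these were chosen after their values were seen.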

Additional observations from a re-analysis of the deposited data

Results flagged for a closer look

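Within groups of 4, single libraries stood far from the other 3 in 20 of 272 sets of member values, where chance flags about 1 in 20 sets. KO KD 24 h replicate 4, the library near the other diet, held 7 of them. It was high for Cps1 (3319 CPM), Ass1 (4501 CPM), Slc25a13 (281 CPM), Kynu (175 CPM), Sds (92.8 CPM) and Dbt (168 CPM), and low for Prodh (238 CPM). WT KD 4 h replicate 4 was high for Asl (753 CPM) and Kynu (108 CPM). KO CD 4 h replicate 3 was low for Tat (544 CPM, the other 3 between 2001 and 2429 CPM) and Slc25a15 (322 CPM).

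Low values were also those of Oat in KO KD 4 h replicate 4 (332 CPM) and KO CD 4 h replicate 4 (616 CPM), and of Gldc in WT CD 4 h replicate 3 (164 CPM). High values were those of Haao in KO CD 24 h replicate 1 (421 CPM), Ftcd in WT KD 24 h replicate 3 (566 CPM), Sds in WT CD 24 h replicate 1 (246 CPM), Prodh in WT CD 24 h replicate 4 (185 CPM), Cps1 in WT CD 4 h replicate 4 (3738 CPM) and Bckdhb in WT CD 4 h replicate 1 (74.6 CPM). KO KD 4 h replicate 4, KO CD 24 h replicate 1 and WT CD 24 h replicate 1 hold muscle transcripts.

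The log2 fasting change differed between KD and CD in WT by 2.14 for Gldc, 1.30 for Amt, 1.28 for Kynu, 1.26 for Haao, 0.95 for Amdhd1, 0.94 for Nags and 0.81 for Glud1. In KO it differed by 0.82 for Haao. On CD the fasting change of Prodh differed between KO and WT by 1.20.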

How the results depend on the processing

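None of the 81 called member results reversed under any alternative. DESeq2 kept 100% of them, its size factors in edgeR 96.3%, fits without muscle libraries 88.9%, without libraries near the other diet 87.7%, on only the groups compared 82.7%, with no filter 81.5% and with 1 replicate left out 76.1%. Counts of passing members moved as follows, and the cause was not tested.

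With no filter, KD against CD in WT at 24 h gave 1, fasting in KO on CD 5 and diet by fasting in KO 0. With DESeq2, KO against WT gave 1 (CD, 24 h), 2 (KD, 4 h) and 4 (KD, 24 h), KD against CD in KO at 24 h gave 1, diet by fasting 11 in WT and 2 in KO, and genotype by fasting on KD and genotype by diet at 4 h and at 24 h 1 each. With only the groups compared, KO against WT gave 3 on CD at 4 h and 1 on KD at 24 h, KD against CD in WT at 24 h gave 0, genotype by fasting 0 on CD and 1 on KD, and genotype by diet at 4 h 1. Without the muscle libraries, KO against WT gave 11 on CD at 24 h and 2 on KD at 4 h, fasting in KO on CD 13, diet by fasting in KO 4, genotype by fasting 8 on CD and 1 on KD, and genotype by diet 1 at 4 h and 4 at 24 h. Over all genes, the calls rose from 299 to 2247 for KO against WT on CD at 24 h. They rose from 2703 to 4259 for fasting in KO on CD, and from 88 to 810 for genotype by fasting on CD. Without the libraries near the other diet, KO against WT on KD at 4 h gave 2, fasting in KO on KD 7, diet by fasting in KO 0 and genotype by diet at 4 h 1.

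Leaving out 1 replicate, KO against WT gave 0 to 0 (CD, 4 h), 0 to 1 (CD, 24 h), 0 to 2 (KD, 4 h) and 2 to 3 (KD, 24 h). KD against CD gave 14 to 18 in WT at 4 h, 1 to 4 in WT at 24 h, 1 to 10 in KO at 4 h and 0 to 0 in KO at 24 h. Fasting gave 7 to 10 in WT on CD, 7 to 13 in WT on KD, 5 to 12 in KO on CD and 5 to 12 in KO on KD. Diet by fasting gave 7 to 10 in WT and 0 to 2 in KO, genotype by fasting 0 to 1 on CD and on KD, and genotype by diet 0 to 0 at both times. No paired analysis was possible because replicate numbers only follow the order of deposit.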
